A study of Bos taurus with 6 samples.

Results

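Glycolysis breaks glucose down to pyruvate, and several of its steps are run by a different isozyme in sperm than in other cells. GAPDHS, PGK2, LDHC and ENO4 are the germ cell isozymes of glyceraldehyde-3-phosphate dehydrogenase, phosphoglycerate kinase, lactate dehydrogenase and enolase. They are known from meiotic cells, spermatids and the sperm tail, where glycolysis supplies ATP for movement. GAPDH, PGK1, LDHA, LDHB and ENO1 do the same chemistry in somatic cells, and ALDOA is the widespread aldolase. The genes described here are these 10, taken as the entries of the deposited gene table that carry their names. Of the 47249 genes in the table, 9 entries were found, 3 of germ cell isozymes and 6 of somatic ones. No entry carried the name PGK2.

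The libraries came from testes of untreated Wandong cattle, a native breed, taken after slaughter, with 1 library per animal. The 3 calves were 3 months old and the 3 bulls were 3 years old. Total RNA was depleted of ribosomal RNA before sequencing. The 2 groups differ in age, and puberty falls between them, so the comparison asks how the isozymes differ between a testis before and after the onset of sperm production. No genotype or other treatment separates the animals. Whole tissue was sequenced, so fewer cells of a type and less RNA per cell cannot be told apart.

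Levels are given as FPKM, fragment counts corrected for transcript length and for how much of the library was mapped, which allows levels of different genes to be set side by side. Fold changes are differences of log2(FPKM + 1), bull minus calf, and understate the change of genes with low FPKM. A gene counted as called where its adjusted p was below 0.05 and it differed by 1 or more on the log2 scale (limma, Benjamini-Hochberg adjustment over all 18115 genes tested). Of these, 8215 (45.3%) were called, 35.7% higher and 9.61% lower in bulls. The median log2 fold change of all genes was 0.43, and it was −0.26 after quantile normalization, which moved the share of higher genes among the calls from 78.8% to 45.8%. The deposited tables give no counts, so the number of fragments behind a value is unknown.

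The library labelled calf 3 stood apart from the other calves. Its summed FPKM over 9 marker genes of brain cells was 13902, against 11.0 to 18.3 in the other 5 libraries, and all 9 were highest there. Among the 8 Sertoli cell markers, FSHR, GATA4 and WT1 were at 0 in calf 3, and the summed level was 444 against 1490 in calf 2 and 1796 in calf 1. CLDN11, which oligodendrocytes also make, gave 429 of that sum in calf 3, and the other 7 markers summed to 15.0 there, to 1471 and 1795 in calf 2 and calf 1 and to 120.5 to 151 in bulls. CLDN11 was singled out after its values were seen. Leydig cell markers summed to 0.466 in calf 3 and to 1132 and 1395 in calf 2 and calf 1. Leydig cell markers and these 3 Sertoli cell markers of the labelled tissue are thus at or near 0 in that library, and the fold changes below are also given without it. Every marker of spermatocytes and of spermatids was higher in every bull than in every calf, as were 46.1% of all genes tested. Of the 8 spermatogonia markers, 2 were higher in every bull than in every calf and 4 were lower, as were 21.3% of all genes. Spermatogonia markers summed to 112, 145 and 284 in calves 1 to 3 and to 144, 139 and 133 in bulls 1 to 3. In calf 3, UCHL1 gave 201 and ID4 gave 50.2 of that sum. DMRT1 was at 0.0938 there, against 44.9 and 68.9 in calf 1 and calf 2, and NANOS2 was at 0. Of the 8 markers, 4 were highest in calf 3 and 4 lay below calf 1 and calf 2. UCHL1, ID4, DMRT1 and NANOS2 were singled out after their values were seen. In bulls, summed FPKM of the 8 round spermatid markers was 564 to 631 (at most 6.08 in calves), and that of the 9 markers of elongating and elongated spermatids was 14340 to 16154 (at most 3.74 in calves). The 9 spermatocyte markers summed to 344 to 414 in bulls and to 3.71 to 32.4 in calves. In bulls, the Sertoli cell markers summed to 188 to 224 and the Leydig cell markers to 1477 to 2744. The part of these cell types in the isozyme levels was not tested.

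GAPDHS (ENSBTAG00000015917) makes the sperm form of glyceraldehyde-3-phosphate dehydrogenase. Its FPKM was 2.68, 2.45 and 0.620 in calves 1 to 3, and 263, 269 and 262 in bulls 1 to 3. The groups did not overlap, and the bulls lay within a narrow range of 265 ± 4.05 (SD, n = 3), 138 times the calf mean of 1.92 ± 1.13 (SD, n = 3) and 103 times that of calf 1 and calf 2. Its log2 fold change was 6.60 (SE 0.34, adjusted p = 2.68e-05), and 6.22 without calf 3. In the table the gene spans 18:46190982-46204595.

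LDHC (ENSBTAG00000002488), the lactate dehydrogenase subunit of spermatocytes and sperm, had an FPKM of 3.21, 4.92 and 0.168 in the calves. In the bulls it was 335, 378 and 352, the highest of the 9 genes in every bull. The log2 fold change was 6.85 (SE 0.60, adjusted p = 0.000202), and 6.15 without calf 3, the library with the lowest value. Among 16918 genes with a symbol, LDHC ranked between 77 and 102 in bulls and between 8098 and 13883 in calves.

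ENO4 (ENSBTAG00000004330), an enolase of the sperm tail, was far weaker. Its FPKM was 0.694, 1.27 and 0.767 in calves and 9.47, 12.4 and 14.4 in bulls. All bulls lay above all calves, with a log2 fold change of 2.77 (SE 0.23, adjusted p = 0.000158), and 2.72 without calf 3. The bull mean of 12.1 ± 2.48 (SD, n = 3) was the lowest of the 9 genes, so the germ cell isozymes took both the first 2 places and the last in that group.

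PGK2 is a retrogene copy of PGK1 that is used from meiosis on, and the table did not pair any entry with its name. In the RefSeq annotation of the ARS-UCD2.0 assembly, PGK2 is the 1 gene between CRISP3 and CRISP1. The deposited table also has 1 entry between these genes, ENSBTAG00000050850 at 23:22503240-22504879, which has no symbol. It was taken up after its place had been seen, as a candidate for PGK2, and it is called the unnamed entry below. Its FPKM was 0.0320, 0.164 and 0 in calves and 275, 305 and 281 in bulls. Every bull exceeded every calf, with a log2 fold change of 8.08 (SE 0.14, adjusted p = 2.53e-06), and 8.04 without calf 3. That level lay between those of GAPDHS and LDHC in every bull. No gene sequence was used here to identify the entry.

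**Figure D1:**
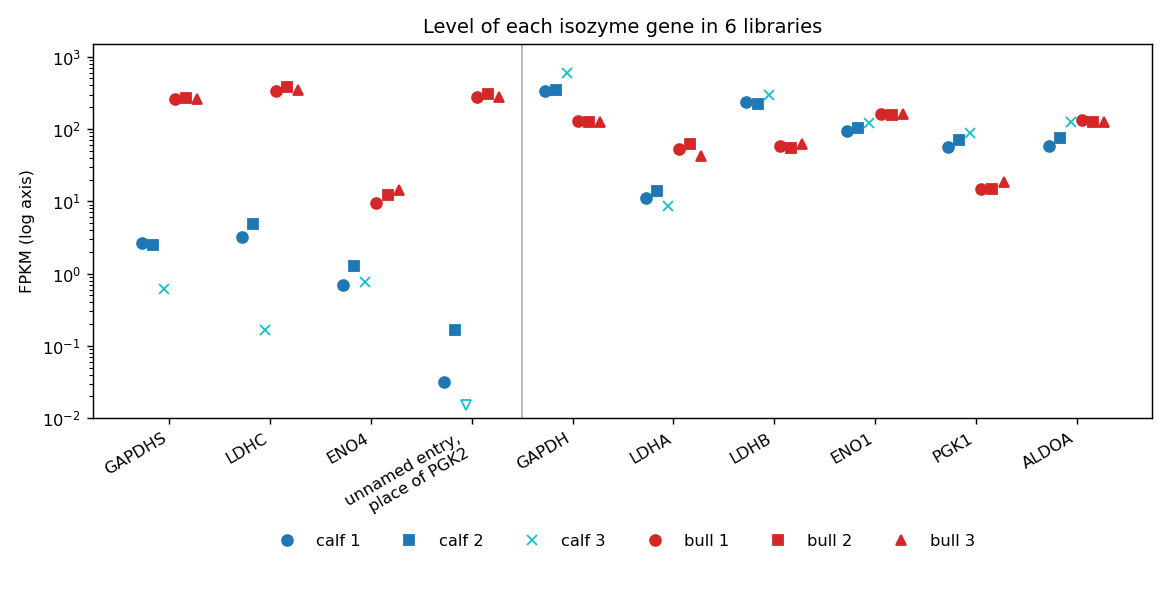
FPKM (log axis) of each isozyme gene in the 3 calf libraries (blue, calf 3 as light crosses) and 3 bull libraries (red), with germ cell isozymes to the left of the line and somatic ones to the right. An open triangle at the lower edge marks an FPKM of 0. GAPDHS, LDHC and the unnamed entry lie at 262 or above in every bull and below 5 in every calf, whereas GAPDH, LDHB and PGK1 lie lower in bulls.

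The somatic isozymes did not move as a group. GAPDH (ENSBTAG00000014731), the somatic partner of GAPDHS, had an FPKM of 335, 346 and 596 in calves and of 127, 125 and 127 in bulls. It was lower in every bull than in every calf, by 1.70 on the log2 scale (log2 fold change −1.70, SE 0.28, adjusted p = 0.00297). Without calf 3, where it was highest, the log2 fold change was −1.43. As the ratio of means, calves had 3.38 times the level of bulls, and 2.70 times without calf 3. The study used GAPDH as the reference gene of its RT-qPCR.

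PGK1 (ENSBTAG00000000894), the X-linked phosphoglycerate kinase of somatic cells, showed 57.2, 69.6 and 88.0 FPKM in calves. In bulls the values were 14.9, 14.7 and 18.6. It fell by 2.08 on the log2 scale (SE 0.21, adjusted p = 0.000362), with −1.92 as the log2 fold change without calf 3.

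LDHB (ENSBTAG00000019603), the lactate dehydrogenase subunit that prevails in aerobic tissue, was the second highest of the 9 genes in each calf, at 235, 222 and 293 FPKM. Its level in bulls was 57.7, 53.9 and 61.2. LDHB was lower in bulls by 2.09 on the log2 scale (log2 fold change −2.09, SE 0.18, adjusted p = 0.000202), and the log2 fold change without calf 3 was −1.97.

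LDHA (ENSBTAG00000008683), the subunit of muscle and of other strongly glycolytic tissue, moved the other way. Calves had 10.9, 13.8 and 8.57 FPKM and bulls 52.5, 61.8 and 43.0, with no overlap. The log2 fold change was 2.15 (SE 0.23, adjusted p = 0.000451), and 1.99 without calf 3. LDHA was thus the 1 somatic isozyme of the 6 that was called higher in bulls.

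ENO1 (ENSBTAG00000013411), the somatic enolase, had an FPKM of 92.7, 104 and 120.3 in calves. In bulls it was 161, 157 and 163. The groups did not overlap, as in 67.4% of all genes tested (46.1% with the bulls above and 21.3% with the bulls below). Its log2 fold change of 0.60 (SE 0.17, adjusted p = 0.0276) was below the size needed for a call, was 0.70 without calf 3 and turned to −0.08 after quantile normalization.

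ALDOA (ENSBTAG00000012927) was at 58.8, 74.9 and 126.5 FPKM in calves and at 131, 126.5 and 125.5 in bulls. Calf 3 reached the level of the bulls, and the groups overlapped. The log2 fold change was 0.63 (SE 0.30, adjusted p = 0.125), with a 95% interval from −0.11 to 1.36. Without calf 3 it was 0.93 (adjusted p = 0.000718), still below the size for a call, and after quantile normalization it was −0.19.

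In all, 7 of the 9 genes were called, 4 higher in bulls (GAPDHS, LDHC, ENO4 and LDHA) and 3 lower (GAPDH, PGK1 and LDHB), against 45.3% of all genes. All 9 had passed the filter on low values, but GAPDHS, LDHC and ENO4 would have passed it through the bulls alone, as the unnamed entry did. The same 7 were called in the same direction without calf 3, where 51.5% of all genes were called (37.9% higher and 13.6% lower). They were so after quantile normalization too, where 46.2% were called (21.1% higher and 25.1% lower).

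**Figure D2:**
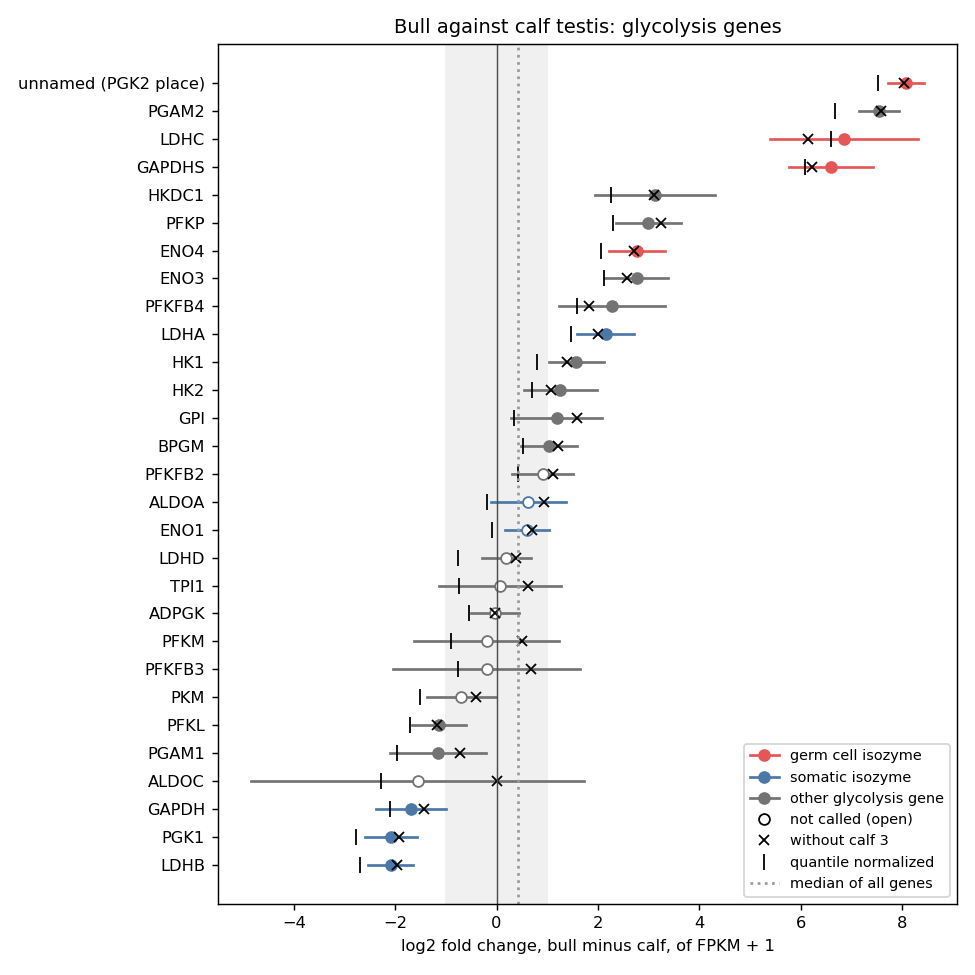
Log2 fold change (bull minus calf, of FPKM + 1) of the isozymes and of the other glycolysis genes tested, with 95% intervals as bars. Filled points were called, open ones were not, crosses give the value without calf 3 and ticks that after quantile normalization. The shaded band marks changes below 1 in size and the dotted line the median of all genes, 0.43. The germ cell isozymes and the unnamed entry lie at 2.77 and above, and GAPDH, PGK1 and LDHB at −1.70 and below. Among the other glycolysis genes, PGAM2, HKDC1, PFKP and ENO3 also lie high, at 7.55, 3.13, 3.00 and 2.77.

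Within a library, the share of an isozyme in its step does not depend on how libraries were scaled. GAPDHS made up 0.793%, 0.702% and 0.104% of the summed FPKM of GAPDH and GAPDHS in the calves. In the bulls it made up 67.4%, 68.4% and 67.4%. The groups were far apart relative to their spread, with a bull mean of 67.7% ± 0.558 (SD, n = 3), and an exact two-sided permutation test over the libraries gave p = 0.1. That is the smallest p that 3 libraries against 3 allow, and with any library left out the smallest is 0.2, so no share could reach a p below 0.05. In bulls 1 to 3, GAPDHS was 2.07, 2.16 and 2.07 times the level of GAPDH.

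LDHC made up 1.29%, 2.04% and 0.0557% of the summed FPKM of the 3 lactate dehydrogenase genes in calves, and 75.3%, 76.6% and 77.1% in bulls (exact permutation test, p = 0.1). The main isozyme of that step was LDHB in every calf, at 92.2% to 97.1%, and LDHC in every bull. LDHB took 10.9% to 13.4% in bulls and LDHA 9.42% to 12.5%. Against LDHA alone, LDHC held 22.7%, 26.3% and 1.92% in calves and 86.0% to 89.1% in bulls. LDHA was 0.0465, 0.0621 and 0.0293 times the level of LDHB in calves 1 to 3 and 0.919 ± 0.222 times in bulls (SD, n = 3).

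ENO4 was a minor isozyme in both groups. Its share of ENO1 plus ENO4 was 0.743%, 1.20% and 0.633% in calves and 5.56%, 7.30% and 8.14% in bulls (exact permutation test, p = 0.1). With the enolases ENO2 and ENO3 counted too, the bull mean was 5.43% ± 1.20 (SD, n = 3). ENO1 was the main enolase in bulls, at 65.7% to 76.0%, and ENO3, the muscle enolase, took 17.0% to 23.2% there against 2.02% to 7.47% in calves.

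The unnamed entry in the place of PGK2 took 0.0560%, 0.234% and 0% of its sum with PGK1 in calves. Its share in bulls was 94.9%, 95.4% and 93.8% (exact permutation test, p = 0.1). This was the widest gap of the 4 shares computed.

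Summed over isozymes, the steps changed by different amounts. The summed FPKM of GAPDH and GAPDHS was 338, 349 and 597 in calves and 389.5, 394 and 389 in bulls, 0.913 times the calf mean and 1.14 times that of calf 1 and calf 2. For PGK1 and the unnamed entry the sum was 57.3, 69.8 and 88.0 in calves and 290.2, 320.0 and 299.6 in bulls, or 4.23 times the calf mean and 4.77 times that of calf 1 and calf 2. The 3 lactate dehydrogenases summed to 249, 241 and 302 in calves and 446, 494 and 456 in bulls, or 1.76 and 1.90 times. For the aldolases ALDOA and ALDOC the bull sum was 0.709 times the calf mean and 1.80 times that of calf 1 and calf 2. For the phosphoglycerate mutases PGAM1 and PGAM2 it was 3.08 and 4.62 times. For the enolases ENO1, ENO2, ENO3 and ENO4 it was 1.58 and 2.09 times. These sums are descriptions with no test, and they do depend on the scaling of the libraries. FPKM summed over all genes was 1066180, 1098720 and 587066 in calves 1 to 3 and 776839, 770191 and 732130 in bulls 1 to 3. The step sums were not brought to a common total.

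**Figure D3:**
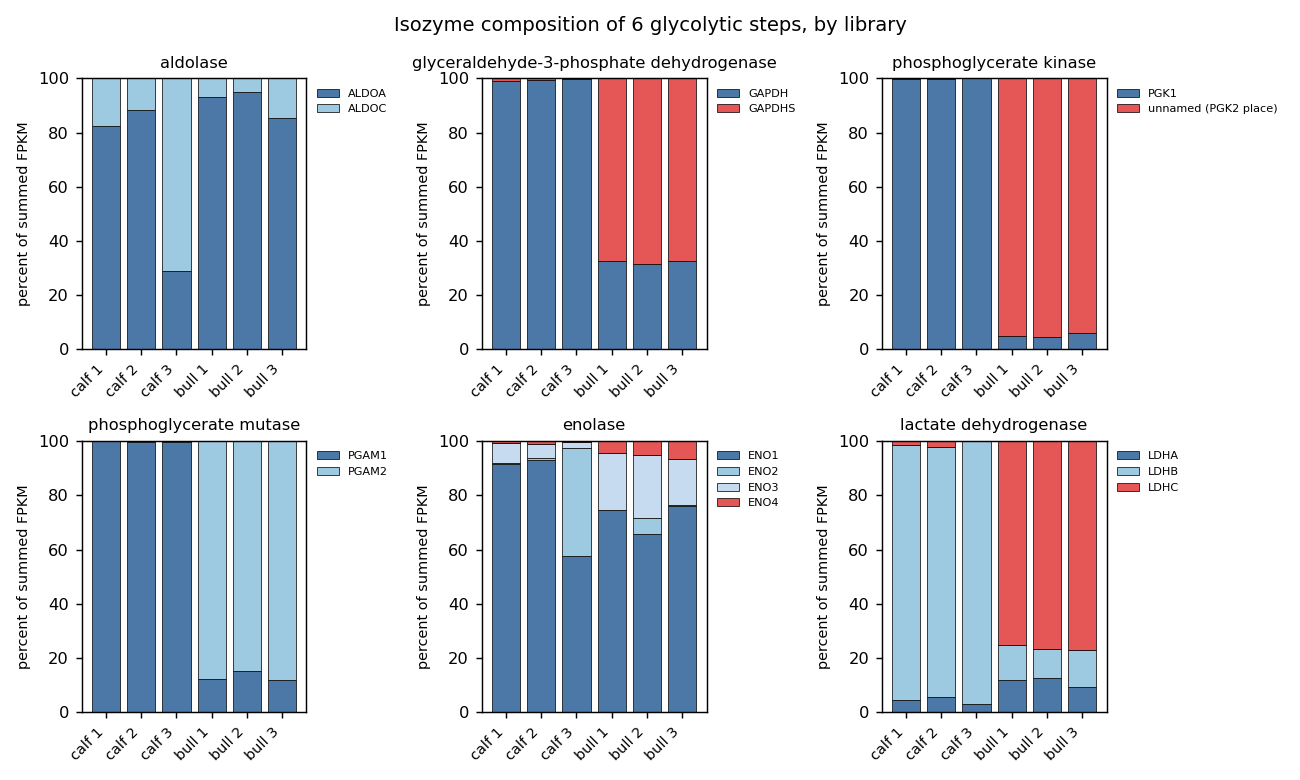
Percent of the summed FPKM of each glycolytic step that each isozyme took, 1 bar per library, with ALDOA and ALDOC shown for aldolase. Red marks the germ cell isozymes and the unnamed entry, and blues the others. Red fills 67.4% to 95.4% of the bars of bulls at the dehydrogenase, kinase and lactate dehydrogenase steps and 4.38% to 6.74% at the enolase step.

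The order of mean levels differed between the groups. In calves it ran GAPDH, LDHB, ENO1, ALDOA, PGK1, LDHA, LDHC, GAPDHS and ENO4. There the ranges of ALDOA overlapped those of both its neighbours, and so did the ranges of GAPDHS. In calf 1 and calf 2 alone the order was the same, and the ranges of ALDOA and PGK1 were the only neighbours to overlap. In bulls it ran LDHC, GAPDHS, ENO1, then ALDOA and GAPDH, then LDHB and LDHA, then PGK1 and ENO4. ALDOA and GAPDH did not differ beyond their spread in bulls, at 128 ± 2.99 and 126 ± 1.32 FPKM (SD, n = 3), and neither did LDHB and LDHA, at 57.6 ± 3.66 and 52.4 ± 9.40.

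The transcript table resolves the isozymes further. It lists 26 entries for the 9 genes, 5 of them assembled from the reads, and 9 of the 11 that passed the filter were called, 6 higher and 3 lower, where 44.2% of all 23212 transcripts tested were called (34.8% higher and 9.37% lower). Without calf 3 the count was again 9, against 49.2% of all transcripts (36.1% higher and 13.1% lower). It was 8 with a pseudocount of 0.1, no filter, quantile normalization, a replicate block or any other library left out. The calls include TCONS_00221850, an assembled entry of ALDOA (log2 fold change 1.16, adjusted p = 0.0346, and 1.32 without calf 3), though ALDOA itself was not called. That entry and LDHC-201, below 1 FPKM in every calf, passed the filter through the bulls alone, so nothing is read from the count. For most genes 1 transcript carried nearly all of the level in every library, such as GAPDH-201 (at least 98.9%), LDHB-201 (at least 99.7%) and PGK1-201 (at least 97.6%).

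LDHC was an exception. LDHC-201 was at 0.582, 0.645 and 0.168 FPKM in calves and at 281, 297 and 288 in bulls. LDHC-202 was at 2.63, 4.27 and 0 in calves and at 53.9, 80.7 and 63.6 in bulls. LDHC-201 therefore held 18.1% and 13.1% of the gene in calf 1 and calf 2, 100% in calf 3, and 83.9%, 78.7% and 81.9% in bulls. Both were called higher in bulls, LDHC-201 with a log2 fold change of 7.64 (SE 0.19, adjusted p = 3.95e-06) and LDHC-202 with 4.63 (SE 0.63, adjusted p = 0.00135). Without calf 3 these were 7.49 and 3.92. LDHC-201, below 1 FPKM in every calf, passed the filter on low values through the bulls alone. LDHC-202, at 0 in calf 3, would have passed it through the bulls alone too.

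At GAPDHS, the entry GAPDHS-201 held at least 99.6% of the gene in bulls. In calves it held 51.0%, 86.5% and 33.8%, and the rest lay in 3 assembled entries named GAPDHS-AS1 to GAPDHS-AS3, names that mark antisense RNA. GAPDHS-AS3 alone made up 64.6% of the small level in calf 3. GAPDHS-201 had 1.37, 2.12 and 0.210 FPKM in calves and 262, 269 and 261 in bulls, a log2 fold change of 7.00 (SE 0.36, adjusted p = 3.61e-05), and 6.61 without calf 3. Below 1 FPKM in calf 3, it would have passed the filter on low values through the bulls alone. With GAPDHS-201 alone, the share of GAPDHS in its step was 0.349% ± 0.290 in calves and 67.7% ± 0.569 in bulls (SD, n = 3 each). The library preparation kept the strand, but whether the quantification used it is not given in the sources used here, so sense and antisense fragments may be mixed in both.

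**Figure D4:**
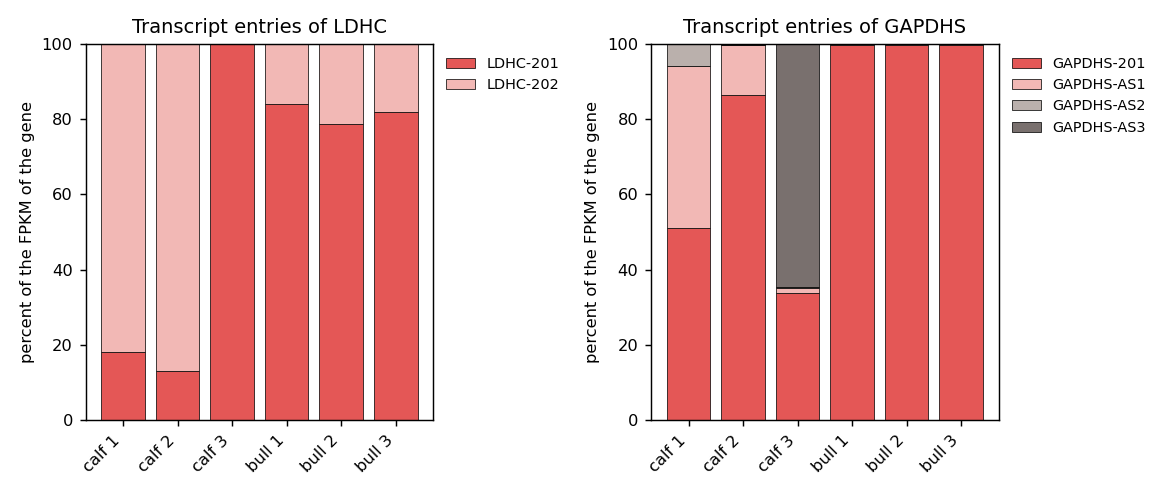
Percent of the FPKM of LDHC (left) and of GAPDHS (right) held by each transcript entry, 1 bar per library. LDHC-202 holds 81.9% and 86.9% in calf 1 and calf 2 and 16.1% to 21.3% in bulls, and GAPDHS-201 fills nearly the whole bar in bulls only.

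Several isozyme genes lie close to or overlap other genes in the table. LDHC (29:26253411-26286384) and LDHA (29:26290893-26301350) are neighbours, 4508 bases apart, and are paralogs whose reads could be shared. Both were higher in bulls, as were TSG101 and GTF2H1 on either side, with log2 fold changes of 1.19 (adjusted p = 0.00588) and 1.32 (adjusted p = 0.00495), and 1.01 and 1.10 without calf 3. Of all genes tested, 35.7% were called higher in bulls, so nothing is read from this. GAPDHS lies inside the span of SBSN, which was at 1.01, 1.61 and 5.83 FPKM in calves and 14.4, 15.9 and 17.4 in bulls. TMEM147 begins 45 bases past GAPDHS, and at 22.7 to 46.8 FPKM in calves and 34.9 to 39.0 in bulls it was not called. PGK1 (X:74244893-74267571) overlaps TAF9B, and ENO4 (26:37240310-37268612) overlaps HSPA12A, so fragments may be divided between these pairs. TAF9B was called lower in bulls, as PGK1 was (log2 fold change −1.72, adjusted p = 0.0323). It was at 4.99, 4.75 and 19.9 FPKM in calves and 1.72, 1.57 and 1.85 in bulls. HSPA12A was not called. Mammalian genomes also hold processed copies of GAPDH and PGK1, with which reads may be shared. HSPA12A was at 40.5 FPKM in calf 3 and at most 3.63 elsewhere. GAPDH (5:103870384-103874824) lies with TPI1 and ENO2 within 336669 bases of chromosome 5. PPP4C ends 19 bases before ALDOA (25:26210423-26218476) and was higher in bulls by 2.01 on the log2 scale (adjusted p = 0.00102), and by 1.77 without calf 3.

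The genes whose values in the 6 libraries lay nearest to those of each germ cell isozyme were found by the Euclidean distance of log2(FPKM + 1), over genes with a symbol. For GAPDHS these were ADAM32 (distance 0.561), C15H11orf71 (0.942) and SHCBP1L (0.960). For LDHC they were SHCBP1L (0.533), ADAM32 (0.998) and ADAD1 (1.03), which was at 5.92, 7.99 and 0 FPKM in calves and 304, 337 and 284 in bulls. The nearest to ENO4 were PRR19 (0.524), MAMDC2 (0.599) and NCF4 (0.622). The unnamed entry lay nearest to P3R3URF (0.262), IQCF1 (0.346) and DNAJB8 (0.407), which was at 0.0781, 0.0583 and 0 FPKM in calves and 335, 304 and 334 in bulls. With 3 libraries a group, many genes share such a pattern, and these distances are descriptions.

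Of 24 other genes of glycolysis and its control, 23 were found, LDHAL6B having no entry, and 19 passed the filter. Of the 19, 11 were called, 9 higher and 2 lower in bulls, where 45.3% of all genes were called, 35.7% higher and 9.61% lower. PGAM2 and HKDC1, below 1 FPKM in every calf, passed the filter through the bulls alone, so nothing is read from the count. Earlier results of these data were known when the list was drawn up. PGAM2, the muscle phosphoglycerate mutase, stood next to the unnamed entry in size. Its FPKM was 0.0529, 0.155 and 0.186 in calves and 241, 186 and 208 in bulls, with a log2 fold change of 7.55 (SE 0.16, adjusted p = 2.72e-06) and 7.58 without calf 3. PGAM1 was at 50.4, 54.7 and 132 in calves and 33.4, 33.7 and 27.9 in bulls, so PGAM2 took at most 0.283% of that step in calves and 84.7% to 88.2% in bulls. PGAM1 was called lower (log2 fold change −1.15, adjusted p = 0.0450), but without calf 3 the log2 fold change was −0.72 and it was not called.

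Among the early enzymes, the hexokinases HK1 and HK2 rose with log2 fold changes of 1.58 and 1.26 (1.39 and 1.07 without calf 3). The hexokinase-like HKDC1 was at 0.221, 0.291 and 0.220 FPKM in calves and at 4.26, 11.0 and 19.3 in bulls, with a log2 fold change of 3.13 (3.11 without calf 3). The phosphofructokinases diverged. PFKP rose from 9.09, 9.69 and 16.6 FPKM in calves to 112, 82.9 and 101.5 in bulls (log2 fold change 3.00, SE 0.26, adjusted p = 0.000211, and 3.25 without calf 3). PFKL, the liver form, fell by 1.13 on the log2 scale (SE 0.22, adjusted p = 0.00564), with −1.18 as its log2 fold change without calf 3. PFKM, the muscle form, was at 67.3 FPKM in calf 3 and 15.0 to 25.1 in the other libraries and was not called.

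ENO3 was called higher, with 2.77 (SE 0.25, adjusted p = 0.000247), and 2.58 without calf 3. So were GPI, BPGM and the regulator PFKFB4, with log2 fold changes of 1.19, 1.04 and 2.27 (1.59, 1.21 and 1.83 without calf 3). TPI1, ALDOC, PKM, LDHD, ADPGK, PFKFB2 and PFKFB3 were not called. HK3, ENO2, PKLR and PFKFB1 were too low for the filter. ALDOC and ENO2, the aldolase and enolase of brain, stood at 311 and 83.5 FPKM in calf 3 and at most at 21.5 and 14.1 in the other libraries. Without calf 3, 11 of the 19 were called again, 10 higher and 1 lower, with PGAM1 lost and PFKFB2 (1.12) gained, where 51.5% of all genes were called (37.9% higher and 13.6% lower). After quantile normalization 8 were called, 5 higher and 3 lower, with HK1, HK2, GPI and BPGM lost and PKM gained as lower (−1.51), where 46.2% of all genes were called (21.1% higher and 25.1% lower). Without calf 2, 7 were called, all higher, where 44.5% of all genes were called (35.7% higher and 8.87% lower). The calls of GPI and PGAM1 were each lost under 8 of 12 alternative settings, and those of PGAM2, ENO3, PFKP, HKDC1 and PFKFB4 under none of the 12.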

How the data were processed

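Ribosomal RNA-depleted testis RNA of 6 animals was sequenced. According to the methods, reads were filtered, cleared of ribosomal RNA with Bowtie2, mapped with TopHat2 and assembled with StringTie. The authors deposited FPKM values per library in a gene table and a transcript table. The tool that made the FPKM values of genes is not given in the sources used here. The methods name the assembly UMD 3.1.1, but 99.7% of 16298 symbols shared with RefSeq on ARS-UCD2.0 overlapped the locus of the same symbol, so positions are those of the table on an ARS-UCD assembly.

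Samples were grouped by title. Genes that reached 1 FPKM in 3 or more of the 6 libraries were tested on log2(FPKM + 1) with limma 3.58.1 (R 4.3.3, data.table version 1.17.8; lmFit and eBayes with a trend, two-sided) and Benjamini-Hochberg adjustment over all features tested. Shares were compared by exact permutation of the libraries (scipy 1.17.1, pandas 2.3.3, Python 3.11.15). Figures were drawn with matplotlib 3.10.9. The procedure was tested on simulated data with independent noise of equal spread in all 6 libraries. That setting does not cover a library that stands apart, as calf 3 does, so nothing is read from it. Values below 0.05 FPKM showed no common step (at most 2.91% of genes at a commonest ratio), so counts could not be recovered. The reads per library that the study lists were not used here. The p-values of limma set a difference against the spread between animals of a group, moderated by that of all genes tested. In calves that spread includes calf 3.

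Alternatives were a pseudocount of 0.1, no filter, quantile normalization, median ratio scaling, array weights, a replicate block and each library left out. The text names all isozymes, any gene of the list of other glycolysis genes, and the 3 genes nearest to each germ cell isozyme. Neighbouring genes and marker genes that define a list are named beside the result they touch. The isozymes and lists were chosen with earlier results of these data known. Replicate numbers did not pair the libraries. Promoter and protein sequences were not analysed here, and some further glycolysis genes are not reported here.

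In the transcript table, values of transcripts of Ensembl genes without a symbol are on another scale. In each library, every gene above 0.05 FPKM equalled the sum of its transcripts (89.3% to 91.5% of genes) or that sum times the library's summed FPKM over 1e6 (8.49% to 10.7%), within a tolerance of 0.001. The second kind was every Ensembl gene without a symbol, and only the unnamed entry is touched here, for which gene values were used.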

Additional observations from a re-analysis of the deposited data

How the results depend on the processing

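The 7 calls of the 9 isozyme genes held under all 12 alternatives. Of 108 recomputed log2 fold changes of the 9 genes, 106 kept their direction and whether the gene was called, and the other 2, both after quantile normalization, reversed, ENO1 to −0.082 and ALDOA to −0.19. The adjusted p of the 2 uncalled genes moved across 0.05: it was below in 3 of 12 alternatives for ENO1 (0.0276 as reported) and in 2 of 12 for ALDOA (0.125 as reported), with log2 fold changes below 1 throughout. The unnamed entry was called under all 12. The other glycolysis genes were less stable: of 228 recomputed values, 187 were unchanged in call, 25 lost the call, 4 gained it and 12 reversed, all 12 in genes that were not called. Reversed values were −0.75 for TPI1 and −0.76 for LDHD after quantile normalization, −0.042 for TPI1 with median ratio scaling, and 0.45 for PFKM and 0.60 for PFKFB3 with array weights. With each library left out in turn, TPI1 ranged from −0.22 to 0.63, PFKM from −0.55 to 0.50, ALDOC from −2.40 to 0.0096, PFKFB3 from −0.69 to 0.67 and ADPGK from −0.13 to 0.13, and calls among these genes ranged from 7 to 11. The cause was not tested.

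Replicate numbers did not pair the libraries: deviations of same-numbered libraries correlated by 0.0277, 0.0246 and 0.0341, though each library correlated best with its own number. With a replicate block, 8128 genes were called in place of 8215, and 7 isozyme genes, 10 other glycolysis genes, 10087 transcripts and 8 isozyme transcripts were.

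The planned share of PGK2 by name had no value, since no entry carries the name, and the unnamed entry was added after the data were seen, as were the share from GAPDHS-201 alone and a rescaling of the transcripts on another scale (10206 calls in place of 10255, 9 isozyme transcripts in both). Without counts, the counting error of the low calf values is unknown. Reads shared between paralogs and overlapping genes cannot be separated in these tables.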

Other observations

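Outside the comparisons, bull 2 differed from the other bulls in the enolases. ENO2 was at 14.1 FPKM in bull 2 and at 0.565 and 0.447 in bull 1 and bull 3, so that it held 5.92% of the summed enolase FPKM in bull 2 and at most 0.262% in the other 2 bulls. The gene was singled out after its values were seen, and it did not pass the filter on low values, so no test was made. In the same step ENO4 was at 12.4 FPKM in bull 2, between the other bulls.

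The brain forms of 2 steps carried much of the level in calf 3. ALDOC held 71.1% of the summed FPKM of ALDOA and ALDOC there, against 17.4% and 11.8% in calf 1 and calf 2, and ENO2 held 40.0% of the enolases, against 0.274% and 0.593%. The germ cell isozymes GAPDHS and LDHC were at their lowest in that library, and ENO4 lay between calf 1 and calf 2.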
